A study of Mus musculus with 12 samples.

Results

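The enzymes of lower glycolysis were followed as 9 transcripts: the aldolases Aldoa and Aldoc, Tpi1, Gapdh, Pgk1, Pgam1, the enolases Eno1 and Eno2, and Pkm. They were chosen by symbol, through the Ensembl identifiers of a gene count table, and make up 9 of its 37620 genes. All 9 passed the filter on low counts, which kept 14616 genes. The RNA came from macrophages grown out of the bone marrow of C57BL/6 mice and taken on day 7 of primary culture, a model outside the animal. Each of 4 groups has 3 libraries: normoxia-NaCl (normoxia, 25 mM NaCl as the salt control), normoxia-lactate (normoxia, 25 mM sodium lactate), hypoxia-NaCl (1% oxygen, 25 mM NaCl) and hypoxia-lactate (1% oxygen, 25 mM sodium lactate). All groups share strain, culture day and 25 mM of an added sodium salt, chloride or lactate, and the labels do not give how long the cells were exposed. Nor do they tell if libraries within a group are separate mice, separate cultures or repeats of 1 culture, so the p-values reflect the spread among these libraries and that spread may be technical. The comparisons ask what low oxygen does, what lactate does, and what both do together.

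Lower glycolysis turns a split hexose into pyruvate. Aldolase cuts fructose bisphosphate, triose phosphate isomerase interconverts its products, and glyceraldehyde phosphate dehydrogenase, phosphoglycerate kinase, phosphoglycerate mutase, enolase and pyruvate kinase then carry the carbon to pyruvate, with ATP made at the kinase steps. Macrophages lean on this route when oxygen is short or when they are activated. Many of its genes are textbook targets of hypoxia-inducible factor (HIF). This transcription factor escapes breakdown when oxygen falls and binds DNA around letters such as ACGTG.

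The libraries held 22705978 to 49885085 reads assigned to genes. Library hypoxia-lactate 3 stood apart: it had the fewest assigned reads, and 11437 of its genes reached 10 counts while each of the remaining 11 libraries had 13198 to 14767. It also had 0.486% mitochondrial reads against 2.04% to 4.75%. Normoxia-NaCl 1 also stood apart, with the highest mitochondrial share of all libraries and with 18.4% of its reads fitting several places, against 8.34% to 14.9%. Member values that hypoxia-lactate 3 moves by over 1.5 times, and calls that it changes, are given with and without it. The 8 macrophage markers, such as Adgre1, Csf1r and Lyz2, summed to 33206 to 48924 CPM (counts scaled to a common effective library size) in every library. The sums in normoxia-NaCl (33206 to 38515) lay below those in normoxia-lactate (42736 to 48924), and the sums in hypoxia-NaCl (34136 to 46736) and hypoxia-lactate (40144 to 45929) overlapped. Of the 8, 1 (Cd14) was called for hypoxia averaged over both media, at 0.82 ± 0.17 on the log2 scale (edgeR adjusted p = 0.036), 4 had an unadjusted p under 0.05, and DESeq2 called 2 and limma-voom 1. Markers of other cells were low: 8 neutrophil markers summed to 0.275 to 51.5 CPM, 6 fibroblast markers to 25.2 to 100.3, 4 mast cell markers to 0.0344 to 4.21, 4 dendritic cell markers to 0 to 4.28, the 3 erythroid markers in the table to 0 to 0.999, and 5 lymphocyte markers to 0 to 0.435. Ms4a1, Xcr1, Alas2, Mcpt4 and Fcer1a were at 0 in every library. The part of these cells in the results was not tested.

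Promoters are shown because 5 of the 9 transcripts rose at low oxygen and because ACGTG, among the letters that HIF reads, can be looked for. The windows run from 250 bases before to 50 bases after the RefSeq transcript start (RefSeq, GRCm38.p6, 5′ to 3′ on the gene's strand), and capitals mark ACGTG or its reverse complement CACGT. The 4 chosen are Pgk1 (chrX:106186850-106187149, plus strand) and Pgam1 (chr19:41911621-41911920, plus strand), called in both media, Tpi1 (chr6:124814109-124814408, minus strand), which rose without these letters in its window, and Eno2 (chr6:124769624-124769923, minus strand), which was not called.
Pgk1: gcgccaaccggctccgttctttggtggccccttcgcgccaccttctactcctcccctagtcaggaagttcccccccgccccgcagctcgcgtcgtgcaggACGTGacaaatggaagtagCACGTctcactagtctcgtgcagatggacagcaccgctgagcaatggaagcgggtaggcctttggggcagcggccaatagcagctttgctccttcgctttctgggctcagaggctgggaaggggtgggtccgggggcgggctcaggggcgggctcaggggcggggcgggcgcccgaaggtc
Pgam1: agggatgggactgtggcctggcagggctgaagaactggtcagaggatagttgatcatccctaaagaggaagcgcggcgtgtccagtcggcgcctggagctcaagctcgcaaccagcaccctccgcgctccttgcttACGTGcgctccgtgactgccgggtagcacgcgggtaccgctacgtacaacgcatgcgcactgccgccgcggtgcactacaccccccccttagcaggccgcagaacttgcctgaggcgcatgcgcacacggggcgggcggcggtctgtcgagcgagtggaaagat
Tpi1: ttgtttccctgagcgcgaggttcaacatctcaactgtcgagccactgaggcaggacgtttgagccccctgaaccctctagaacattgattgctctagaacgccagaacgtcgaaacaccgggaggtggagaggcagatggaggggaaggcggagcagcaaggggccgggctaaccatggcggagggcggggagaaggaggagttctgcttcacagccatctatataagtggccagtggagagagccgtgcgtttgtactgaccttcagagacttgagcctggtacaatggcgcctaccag
Eno2: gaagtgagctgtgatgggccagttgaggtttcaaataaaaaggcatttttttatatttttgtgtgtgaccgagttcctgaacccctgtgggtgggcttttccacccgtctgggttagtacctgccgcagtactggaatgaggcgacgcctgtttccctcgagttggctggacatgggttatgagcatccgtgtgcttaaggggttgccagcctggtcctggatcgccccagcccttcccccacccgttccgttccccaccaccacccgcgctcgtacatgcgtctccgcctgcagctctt
The Pgk1 window holds the letters at 150 and at 131 bases before the start, once on each strand, and the Pgam1 window at 114 bases before it. Neither strand of the Tpi1 or Eno2 window holds them. Each of the 9 genes had at least 1 window. The letters were in at least 1 window of 6 (Aldoa, Aldoc, Gapdh, Pgk1, Pgam1 and Pkm), against 21.8% of 27025 genes. Of these, Aldoa, Pgk1 and Pgam1 were called averaged over both media, and Aldoc, Gapdh and Pkm were not. Of the members without the letters, Tpi1 and Eno1 were called and Eno2 was not. Aldoa and Eno1 had 3 windows and Aldoc and Pkm 2, and more windows give more places for a match. The 21.8% was not matched for windows per gene or for expression. Pgk1 and the downstream Pkm window had the letters at 2 places, against 8.21% of 32851 windows, and in no member window did the strands overlap as CACGTG. In Aldoc and Gapdh the match lies after the start, at 27 and 42 bases. Eno1 has 3 windows and none holds ACGTG. The related letters GCGTG, counted on both strands, were at 2 places in each of these 3 windows. They were also at 2 places in the Pgam1, Gapdh and upstream Aldoc windows and at 1 in the other Aldoc window. The remaining member windows held 0, and 32.4% of 32851 windows held GCGTG. A match describes letters and is not a binding site, and a missing match says only that these letters are not in this window. Tpi1, Eno2 and Gapdh lie near each other on mouse chromosome 6 (GENCODE M21, GRCm38: Tpi1 124810586 to 124814296, Eno2 124760053 to 124769673, Gapdh 125161715 to 125166467), and the other 6 lie on 6 different chromosomes.

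At 1% oxygen the lower glycolysis transcripts rose at most steps. Averaged over both media (6 libraries against 6), 5 of the 9 rose, Pgk1, Tpi1, Eno1, Pgam1 and Aldoa, by 1.85-fold to 3.79-fold, and 0 fell. The test was the quasi-likelihood F test of edgeR, adjusted by the Benjamini-Hochberg method over all 14616 genes, its result is called the edgeR adjusted p here, and 1.12% of all genes were called higher in this comparison. Without lactate 2 of 9 rose (Pgk1 and Pgam1) against 0.267% of genes, and with lactate 3 of 9 rose (Tpi1, Pgk1 and Pgam1) against 0.198%. With same-numbered libraries treated as pairs, the same 2 rose without lactate. Pgk1 was then at 1.85 ± 0.27 (edgeR adjusted p = 0.0245) and Pgam1 at 1.55 ± 0.17 (edgeR adjusted p = 0.00865). The remaining members had edgeR adjusted p = 0.345 (Tpi1) to 0.998 (Eno2) in that paired reading. The median log2 fold change of the 9 was 0.56 without lactate, 1.19 with lactate and 0.89 averaged, beside 0.01, -0.03 and -0.01 over all genes tested, and 8 of 9 values were above 0 each time. In bulk RNA, a larger share of cells with a transcript and more of it in each cell cannot be told apart.

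The size of the response depended on the libraries used. Without hypoxia-lactate 3 the calls were 4 of 9 without lactate, 4 of 9 with lactate (Tpi1, Pgk1, Pgam1 and Eno1 each time) and 5 of 9 averaged, against 1.23%, 0.65% and 3.91% of genes called higher. Without both hypoxia-lactate 3 and normoxia-NaCl 1, the calls were 6, 5 and 7 of 9, against 0.991%, 1.55% and 4.74% of genes. The members' median log2 fold change without hypoxia-lactate 3 was 0.55, 0.95 and 0.75, and without both libraries it was 0.99, 0.95 and 0.86.

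**Figure D1:**
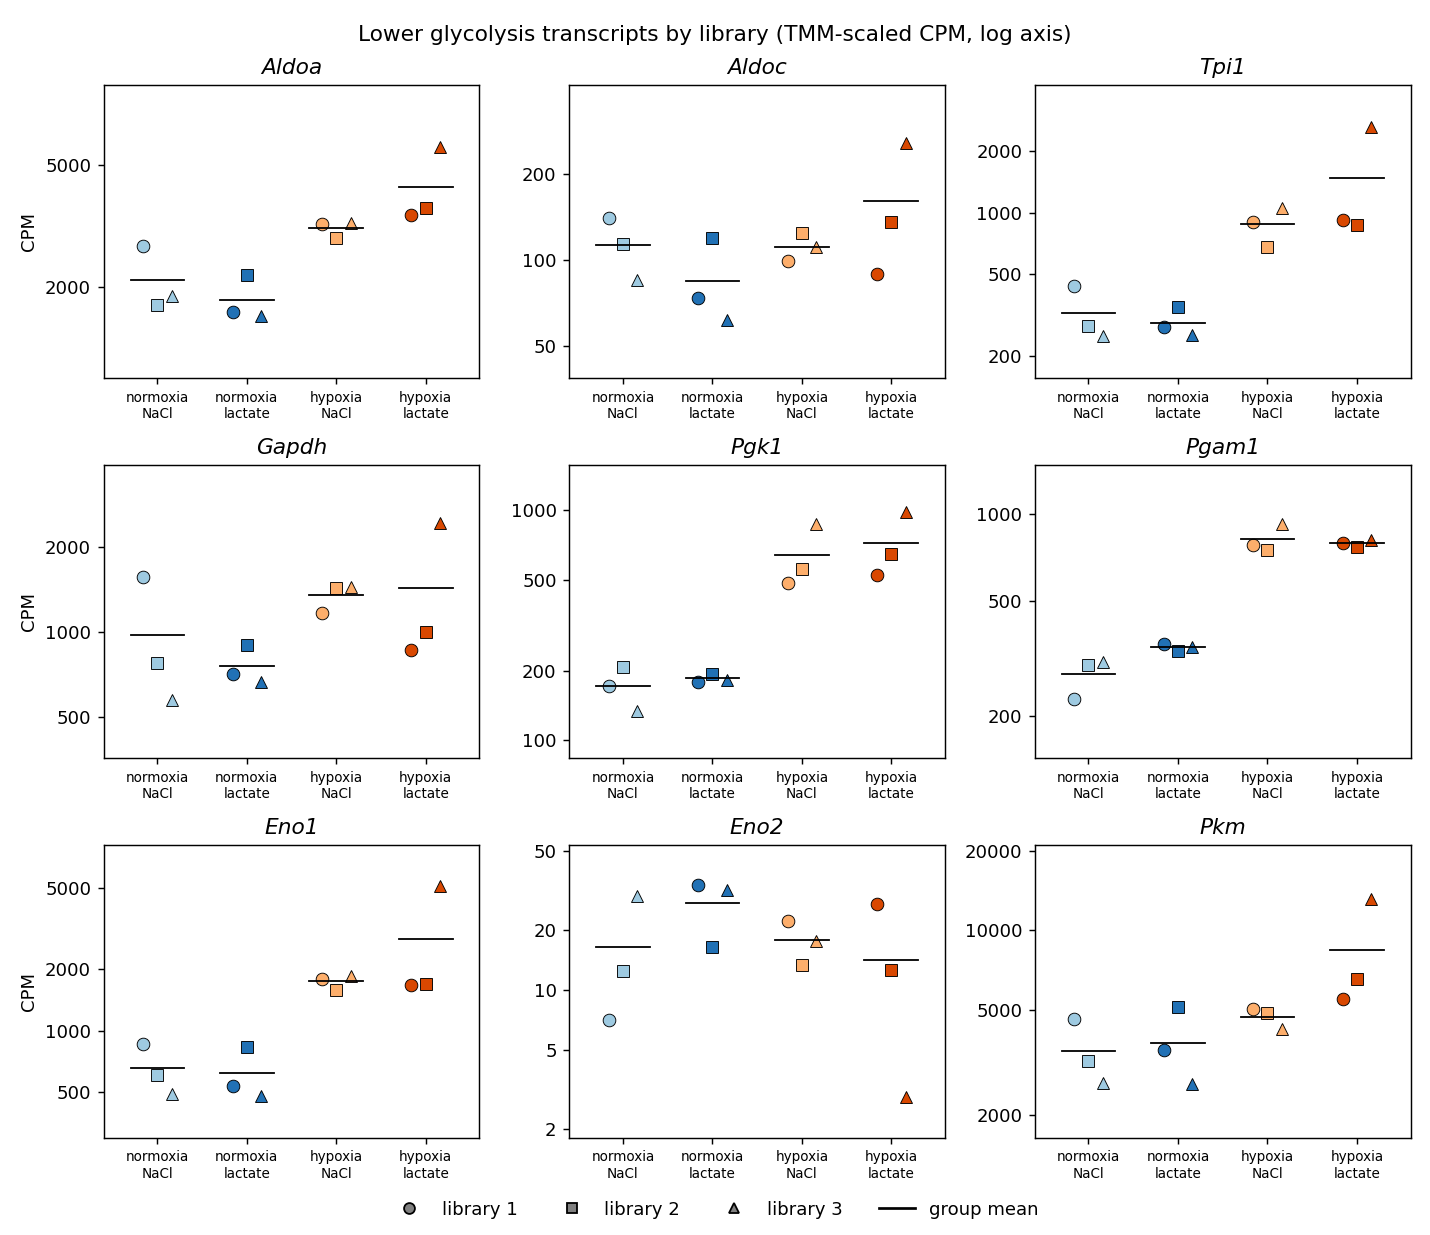
Each panel plots 1 transcript, with the 4 groups on the x axis and TMM-scaled CPM on a log y axis with its own range. Symbols are single libraries, with a different symbol for library 1, 2 and 3, and the short line is the group mean. Every hypoxia library of Tpi1, Pgk1, Pgam1, Eno1 and Aldoa lies above every normoxia library, and Eno2 does not follow them.

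Aldolase was carried mainly by Aldoa, the aldolase of muscle and most cells. Aldoa measured 2734, 1756 and 1867 CPM in normoxia-NaCl, 1655, 2192 and 1617 in normoxia-lactate, 3220, 2888 and 3237 in hypoxia-NaCl, and 3433, 3627 and 5718 in hypoxia-lactate (libraries 1, 2 and 3 in that order here and throughout). Every hypoxia library was above every normoxia library. Averaged over both media Aldoa rose by 0.89 ± 0.18 on the log2 scale (SE; edgeR adjusted p = 0.0353). Within a medium it did not pass: 0.56 ± 0.26 without lactate (edgeR adjusted p = 0.774) and 1.23 ± 0.26 with lactate (edgeR adjusted p = 0.112). With lactate Aldoa passed under 3 of 24 alternatives, among them DESeq2 (1.29, adjusted p = 0.000991), and without lactate under 2 of 24. The averaged call held without hypoxia-lactate 3 (0.75 ± 0.15, edgeR adjusted p = 0.00958). It did not hold without normoxia-NaCl 2 or 3, or without any 1 of the normoxia-lactate or hypoxia-NaCl libraries, where Aldoa had edgeR adjusted p = 0.0526 to 0.136 and log2 fold changes of 0.83 to 0.95, nor with the library number as a block (0.88, edgeR adjusted p = 0.052).

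Aldoc, the aldolase best known from brain, was scarcer and did not pass the test. It ranged from 61.6 to 141 CPM in normoxia and from 89.1 to 256 CPM in hypoxia, so the groups overlapped, and its highest value was in hypoxia-lactate 3. The log2 fold change of Aldoc was -0.02 ± 0.35 without lactate, 0.92 ± 0.36 with lactate and 0.45 ± 0.25 averaged (edgeR adjusted p = 0.422). Without hypoxia-lactate 3 the value with lactate was 0.41 ± 0.28 and the averaged value 0.19 ± 0.19.

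Tpi1, triose phosphate isomerase, had values of 440, 280 and 249 CPM in normoxia-NaCl, 275, 345 and 252 in normoxia-lactate, 895, 679 and 1056 in hypoxia-NaCl, and 923, 873 and 2627 in hypoxia-lactate. The lowest hypoxia library was above the highest normoxia library, and hypoxia-lactate 3 was far above the rest. Averaged over both media Tpi1 rose by 1.89 ± 0.28 on the log2 scale (3.71-fold, edgeR adjusted p = 0.00525). With lactate it rose by 2.34 ± 0.41 (edgeR adjusted p = 0.0404). Without lactate the log2 fold change was 1.44 ± 0.40 and did not pass (edgeR adjusted p = 0.339). Without hypoxia-lactate 3, Tpi1 passed in both media, with 1.44 ± 0.23 without lactate (edgeR adjusted p = 0.00809) and 1.63 ± 0.25 with lactate (edgeR adjusted p = 0.00891). The call with lactate from all libraries did not hold without any 1 library of the other 3 groups (edgeR adjusted p = 0.0549 to 0.324), nor with the library number as a block (2.23, edgeR adjusted p = 0.0808).

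Gapdh, glyceraldehyde phosphate dehydrogenase, which is widely used as a reference gene, did not pass the test. It read 1568, 775 and 574 CPM in normoxia-NaCl, 708, 900 and 667 in normoxia-lactate, 1169, 1428 and 1443 in hypoxia-NaCl, and 860, 999 and 2432 in hypoxia-lactate. The groups overlapped, and normoxia-NaCl 1 was above 5 of the 6 hypoxia libraries. With reads on its annotated pseudogenes added, Gapdh had 1391, 1799 and 1233 CPM in normoxia-lactate and 2006, 2390 and 4063 in hypoxia-lactate. These did not overlap, and with lactate 8.23% of genes had every hypoxia library above every normoxia library. With the pseudogene reads added, Gapdh still did not pass the test with lactate. In the same way it had 2763, 1524 and 1260 CPM in normoxia-NaCl and 2315, 2443 and 2602 in hypoxia-NaCl, which overlapped. The changes that follow use reads on Gapdh alone. The log2 fold change of Gapdh was 0.47 ± 0.41 without lactate (edgeR adjusted p = 0.963), 0.92 ± 0.41 with lactate (edgeR adjusted p = 0.335) and 0.69 ± 0.29 averaged (edgeR adjusted p = 0.282). Without hypoxia-lactate 3 the value with lactate was 0.29 ± 0.32 and the averaged value 0.38 ± 0.22. Without normoxia-NaCl 1 as well, Gapdh passed without lactate (0.99 ± 0.18, edgeR adjusted p = 0.0233) and averaged (0.64 ± 0.13, edgeR adjusted p = 0.0105). The 10 other reference genes tested, among them Actb, B2m and Hprt, had a median log2 fold change of -0.12 averaged over both media. By edgeR's quasi-likelihood test 0 of these 10 were called, 2 had an unadjusted p under 0.05, and DESeq2 called 1 and limma-voom 0.

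Pgk1, phosphoglycerate kinase and the first ATP-yielding step of the pathway, rose in both media. It measured 173, 208 and 134 CPM in normoxia-NaCl, 180, 194 and 184 in normoxia-lactate, 485, 557 and 875 in hypoxia-NaCl, and 525, 644 and 987 in hypoxia-lactate. The normoxia libraries lay close together, and the lowest hypoxia library was far above the highest of them. The log2 fold change was 1.90 ± 0.29 without lactate (3.72-fold, edgeR adjusted p = 0.0152), 1.95 ± 0.29 with lactate (3.86-fold, edgeR adjusted p = 0.0123) and 1.92 ± 0.20 averaged (edgeR adjusted p = 0.000414). Without hypoxia-lactate 3 these were 1.89 ± 0.23, 1.65 ± 0.24 and 1.77 ± 0.17, and all passed. The call without lactate did not hold without normoxia-NaCl 1, 2 or 3 or hypoxia-NaCl 3 (edgeR adjusted p = 0.0584 to 0.126), and the call with lactate did not hold without normoxia-lactate 1, 2 or 3 (edgeR adjusted p = 0.0834 to 0.131).

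Pgam1, phosphoglycerate mutase, rose in both media. Its values were 229, 301 and 309 CPM in normoxia-NaCl, 357, 336 and 346 in normoxia-lactate, 780, 749 and 926 in hypoxia-NaCl, and 792, 769 and 815 in hypoxia-lactate. Here hypoxia-lactate 3 sat among the other hypoxia libraries. Its log2 fold change was 1.55 ± 0.18 without lactate (2.92-fold, edgeR adjusted p = 0.00261), 1.19 ± 0.18 with lactate (2.29-fold, edgeR adjusted p = 0.0123) and 1.37 ± 0.13 averaged (edgeR adjusted p = 0.000148). Leaving out hypoxia-lactate 3 gave 1.55 ± 0.16, 1.17 ± 0.17 and 1.36 ± 0.12. Pgam1 without lactate passed under each of the 24 alternatives run, and the call with lactate did not hold without normoxia-lactate 1, 2 or 3 (edgeR adjusted p = 0.0923 to 0.13).

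Enolase was carried mainly by Eno1, the enolase of most tissues. It had 864, 611 and 493 CPM in normoxia-NaCl, 540, 838 and 481 in normoxia-lactate, 1798, 1591 and 1850 in hypoxia-NaCl, and 1675, 1694 and 5078 in hypoxia-lactate. All hypoxia libraries were above all normoxia libraries, with hypoxia-lactate 3 far above the other 5. Averaged over both media Eno1 rose by 1.80 ± 0.29 on the log2 scale (3.48-fold, edgeR adjusted p = 0.00888). Without lactate it was 1.41 ± 0.41 (edgeR adjusted p = 0.395) and with lactate 2.18 ± 0.42 (edgeR adjusted p = 0.0706), neither past the threshold. Without hypoxia-lactate 3 Eno1 passed in both media, at 1.41 ± 0.24 (edgeR adjusted p = 0.0101) and 1.44 ± 0.26 (edgeR adjusted p = 0.0198). With lactate Eno1 also passed by DESeq2 (adjusted p = 0.000142) and limma-voom (adjusted p = 0.0458), and in all under 10 of 24 alternatives.

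Eno2, the enolase best known from neurons, did not pass the test. It read 7.08, 12.5 and 29.6 CPM in normoxia-NaCl, 33.5, 16.4 and 31.7 in normoxia-lactate, 22.1, 13.4 and 17.7 in hypoxia-NaCl, and 27.1, 12.5 and 2.91 in hypoxia-lactate. High and low libraries occurred at both oxygen levels, and hypoxia-lactate 3 held only 49 reads. The log2 fold change of Eno2 was 0.11 ± 0.65 without lactate, -0.93 ± 0.65 with lactate and -0.41 ± 0.46 averaged (edgeR adjusted p = 0.73). Without hypoxia-lactate 3 it was -0.46 ± 0.50 with lactate and -0.18 ± 0.33 averaged.

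Pkm, the muscle-type pyruvate kinase, was the most abundant of the 9 in counts and did not pass the test. It had 4594, 3208 and 2643 CPM in normoxia-NaCl, 3530, 5107 and 2624 in normoxia-lactate, 5014, 4845 and 4217 in hypoxia-NaCl, and 5498, 6547 and 13174 in hypoxia-lactate. The hypoxia libraries lay above the normoxia libraries with lactate, and overlapped with them without it. For Pkm the log2 fold change was 0.43 ± 0.35 without lactate (edgeR adjusted p = 0.961), 1.16 ± 0.36 with lactate (edgeR adjusted p = 0.238) and 0.80 ± 0.25 averaged (edgeR adjusted p = 0.164). With lactate and without hypoxia-lactate 3, Pkm was at 0.68 ± 0.28. The averaged value of Pkm passed under 4 of 23 alternatives, among them DESeq2 (0.83, adjusted p = 0.047) and the fit without both hypoxia-lactate 3 and normoxia-NaCl 1 (0.68 ± 0.16, edgeR adjusted p = 0.0263). Counts per gene do not separate the Pkm splice forms.

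Counted by non-overlap of the single libraries, 5 of 9 members (Aldoa, Tpi1, Pgk1, Pgam1 and Eno1) had every hypoxia library above every normoxia library without lactate, against 12.8% of genes. With lactate 6 of 9 did, the same 5 and Pkm, against 8.23%, and over all libraries the same 5 did, against 2.24%. The 9 transcripts together took 0.660% to 0.929% of assigned reads in normoxia-NaCl and 0.646% to 1.02% in normoxia-lactate. They took 1.37% to 1.43% in hypoxia-NaCl and 1.43% to 2.31% in hypoxia-lactate, with the highest share in hypoxia-lactate 3.

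**Figure D2:**
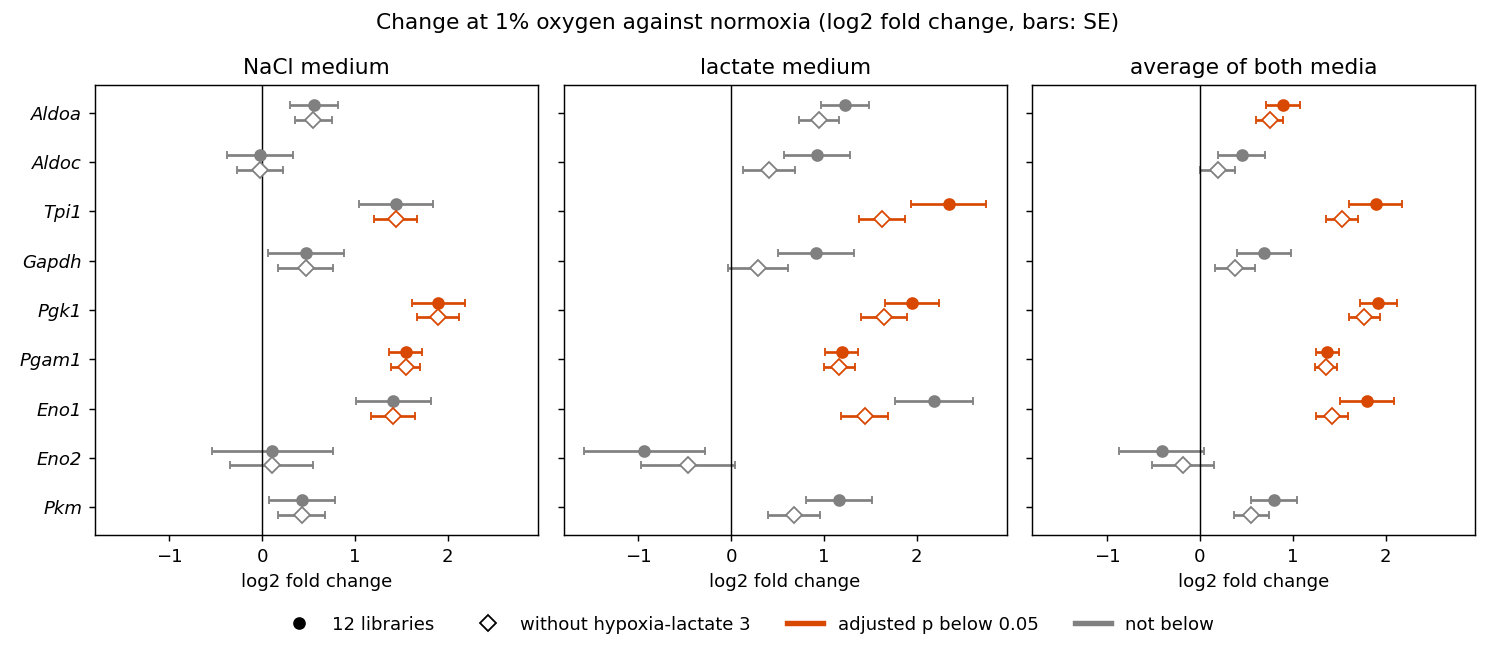
Log2 fold changes of the 9 transcripts at 1% oxygen against normoxia, in 1 panel each without lactate, with lactate and averaged over both media, with bars for the SE. Filled circles come from all 12 libraries, open diamonds leave out hypoxia-lactate 3, and orange marks an edgeR adjusted p below 0.05. Pgk1 and Pgam1 are orange in all 3 panels with both sets of libraries.

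Per length, the members spanned a wide range of levels. RPKM values (CPM divided by the length in kilobases of the longest coding transcript) in normoxia-NaCl were 1432 ± 413 for Pkm and 1368 ± 346 for Aldoa (SD, n = 3). Gapdh had 685 ± 370, Eno1 323 ± 93.5, Tpi1 201 ± 63.8 and Pgam1 158 ± 24.6 RPKM. Each of these means lay within the summed SDs of its neighbour in that order. Pgk1 at 94.0 ± 20.2, Aldoc at 40.5 ± 10.03 and Eno2 at 5.86 ± 4.20 RPKM each lay further below their upper neighbour than the summed SDs. In hypoxia-NaCl Aldoa had 2011 ± 127, Pkm 1929 ± 173, Gapdh 949 ± 109, Eno1 862 ± 67.6, Tpi1 546 ± 118, Pgam1 461 ± 53.3 and Pgk1 350 ± 114 RPKM. Aldoc was at 39.9 ± 4.58 and Eno2 at 6.34 ± 1.56 RPKM there. The order depends on the length used: with all annotated exons of a gene, the means over 12 libraries of Gapdh, Eno1, Tpi1 and Pgam1 were 273, 271, 269 and 282 RPKM.

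Within a library the ratio of isozymes does not depend on library size. In normoxia Aldoc made up 3.67% to 6.08% of the reads on both aldolases (median 4.61%), and in hypoxia 2.53% to 4.29% (median 3.46%). The mean log2 ratio of Aldoc to Aldoa was -4.35 ± 0.27 in normoxia and -4.82 ± 0.30 in hypoxia (SD, n = 6 each), a difference of -0.47 (exact permutation test within each medium, two-sided, p = 0.02). Eno2 made up 0.814% to 6.18% of the reads on both enolases in normoxia (median 3.83%) and 0.0572% to 1.59% in hypoxia (median 0.89%). Its mean log2 ratio to Eno1 was -5.03 ± 1.23 in normoxia and -7.29 ± 1.75 in hypoxia, a difference of -2.25 (exact permutation, two-sided, p = 0.025). Adjusted over the 2 ratios, both exact permutation p-values were 0.025, and the smallest that 400 permutations can give is 0.005.

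By these tests the minor isozyme took a smaller part of its pair in hypoxia, with some overlap of single libraries. By medium the difference for Aldoc to Aldoa was -0.58 in NaCl and -0.36 in lactate, and for Eno2 to Eno1 -1.12 in NaCl and -3.39 in lactate. Without hypoxia-lactate 3 the values in lactate were -0.53 and -1.98. Over both media and without that library the differences were -0.56 (exact permutation p = 0.01) and -1.55 (exact permutation p = 0.045). With the library numbers as pairs both had an exact permutation p of 0.0625. Swapping within pairs allows fewer arrangements than the 400 above, so the smallest p it can give is above 0.005. The aldolase ratio missed the threshold without normoxia-lactate 2, hypoxia-NaCl 1 or hypoxia-lactate 1 (exact permutation p = 0.05 to 0.065), and the enolase ratio without normoxia-lactate 1 or 3 (exact permutation p = 0.065).

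**Figure D3:**
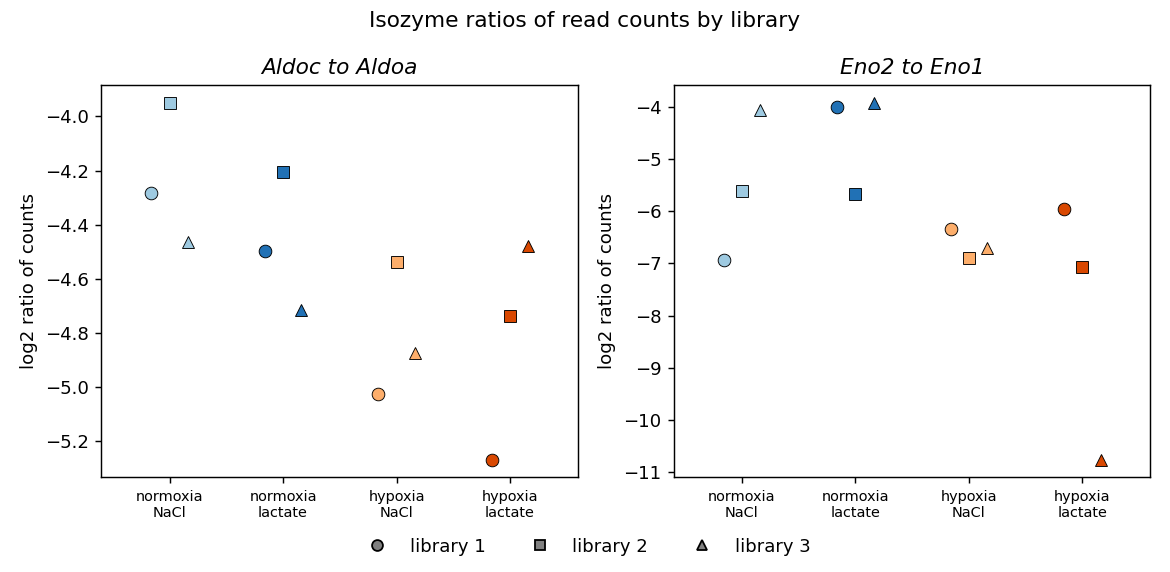
Log2 ratios of read counts for Aldoc to Aldoa and Eno2 to Eno1, with the 4 groups on the x axis and symbols for single libraries. The hypoxia means differ from the normoxia means by -0.47 and -2.25, and the lowest enolase point is hypoxia-lactate 3.

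Lactate at constant oxygen gave no call among the 9. In normoxia, 0 of 9 were called by edgeR's quasi-likelihood test, 0 had an unadjusted p under 0.05, and DESeq2 and limma-voom also called 0. Over all genes 0% were called, 227 genes had an unadjusted p under 0.05, and DESeq2 called 10 and limma-voom 0. The members' values ran from -0.42 ± 0.35 (Aldoc) to 0.73 ± 0.65 (Eno2), with a median of -0.08 beside 0.01 over all genes. Pgam1 was the only member whose normoxia-lactate libraries all lay above the normoxia-NaCl libraries, against 5.6% of genes, and its log2 fold change was 0.31 ± 0.17.

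Lactate at 1% oxygen also gave 0 calls of 9 by edgeR's quasi-likelihood test, DESeq2 and limma-voom, and 1 member had an unadjusted p under 0.05. Over all genes edgeR's quasi-likelihood test called 0%, with 1664 at an unadjusted p under 0.05, DESeq2 called 112 and limma-voom 0. The member was Pkm, at 0.84 ± 0.36, and without hypoxia-lactate 3 it was at 0.37 ± 0.28. Aldoa (0.45 ± 0.26) and Pkm had every hypoxia-lactate library above every hypoxia-NaCl library, against 6.69% of genes. The median of the 9 was 0.45 with all libraries and 0.02 without hypoxia-lactate 3. With all libraries Tpi1 was at 0.75, Eno1 at 0.69, Gapdh at 0.09, Aldoc at 0.53, Pgk1 at 0.17 and Eno2 at -0.32. Without hypoxia-lactate 3 Tpi1 was at 0.04 ± 0.25, Eno1 at -0.05 ± 0.26 and Gapdh at -0.53 ± 0.33. Aldoa was then at 0.19 ± 0.22, Pgk1 at -0.12 ± 0.25 and Pgam1 at -0.06 ± 0.17. Aldoc was at 0.02 ± 0.28 and Eno2 at 0.17 ± 0.50 in that fit.

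The response to low oxygen was not shown to differ between media. The interaction (response with lactate minus response without it) was called for 0 of 9 members and 0% of genes by edgeR's quasi-likelihood test, 0 members had an unadjusted p under 0.05, and DESeq2 and limma-voom called 0 members. Over all genes 497 had an unadjusted p under 0.05, and DESeq2 called 1 and limma-voom 0. The members' values ran from -1.04 ± 0.92 for Eno2 to 0.95 ± 0.50 for Aldoc, which without hypoxia-lactate 3 were at -0.57 ± 0.67 and 0.44 ± 0.37. For the members called in both media it was 0.05 ± 0.39 (Pgk1, and -0.25 without hypoxia-lactate 3) and -0.35 ± 0.25 (Pgam1). Tpi1 was at 0.90 ± 0.55 with all libraries and 0.19 ± 0.34 without hypoxia-lactate 3, and Eno1 at 0.77 ± 0.57 and 0.03 ± 0.35. Gapdh was at 0.45 with all libraries and -0.18 ± 0.44 without hypoxia-lactate 3. In the same order Aldoa was at 0.67 and 0.40 ± 0.29, and Pkm at 0.73 and 0.25 ± 0.38. The SEs are wide, so equal responses are not shown either.

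The rest of the route was read from lists of genes that were chosen with earlier results of these data known. Upstream, in glucose uptake and upper glycolysis, 6 of 13 genes rose averaged over both media and 0 fell. Slc2a1, the main glucose transporter, rose by 1.91 ± 0.18, Pfkl, the liver-type phosphofructokinase, by 1.83 ± 0.20, and Pfkfb3, which makes an activator of phosphofructokinase, by 1.67 ± 0.17. The others called were Gpi1, Hk2 and Pfkp. In each single medium 4 of 13 were called, all higher. The median over the 13 was 0.49 averaged. Without hypoxia-lactate 3, 6 rose and 1 fell averaged.

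Downstream, from pyruvate to lactate and its export, 3 of 8 genes rose and 1 fell averaged over both media, against 0.26% of all genes called lower. Slc16a3, a lactate exporter, rose by 2.52 ± 0.27, Pdk1, which restrains pyruvate entry to mitochondria, by 2.22 ± 0.17, and Ldha, the lactate dehydrogenase subunit that favours lactate formation, by 1.59 ± 0.21. Ldhb, the other subunit, fell by 1.20 ± 0.26 on the log2 scale, from 6.83 and 4.70 CPM in the normoxia groups to 3.44 and 1.76 CPM in the hypoxia groups. Without lactate 2 of 8 rose and with lactate 3 of 8, and without hypoxia-lactate 3 the averaged counts were 3 higher and 2 lower.

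No gene of the side routes was called by edgeR's quasi-likelihood test in these 3 comparisons. In the branches from lower glycolysis to glycerol and serine, 0 of 10 genes passed averaged over both media, with a median of -0.35, 2 at an unadjusted p under 0.05, 1 called by DESeq2 and 0 by limma-voom. In the pentose phosphate pathway 0 of 7 passed, with a median of -0.37, 3 at an unadjusted p under 0.05, 1 called by DESeq2 and 0 by limma-voom. Without hypoxia-lactate 3, 1 of 10 and 3 of 7 fell averaged over both media and 0 rose, against 3.68% of all genes called lower in that fit. Of the isozymes for the same steps that are not among the members, 3 were abundant enough to test, and the counts of Eno1b, named as a further copy of Eno1, rose by 2.49 ± 0.44, from 0.0982 and 0.179 CPM in the normoxia groups to 0.700 and 0.843 in the hypoxia groups. Stretches of Eno1 have exact copies in other genes, as given with the pseudogenes, and whether these few reads came from Eno1 was not tested.

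Among HIF targets outside glycolysis, 12 of 15 rose averaged over both media, with a median of 2.02. Egln3, an oxygen sensor that marks HIF for breakdown, rose by 4.65 ± 0.18, Ankrd37 by 4.61 ± 0.21 and Ak4, a mitochondrial adenylate kinase, by 4.15 ± 0.37. These 3 are the most risen of the list. For the members the count was 5 of 9 and the median 0.89.

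**Figure D4:**
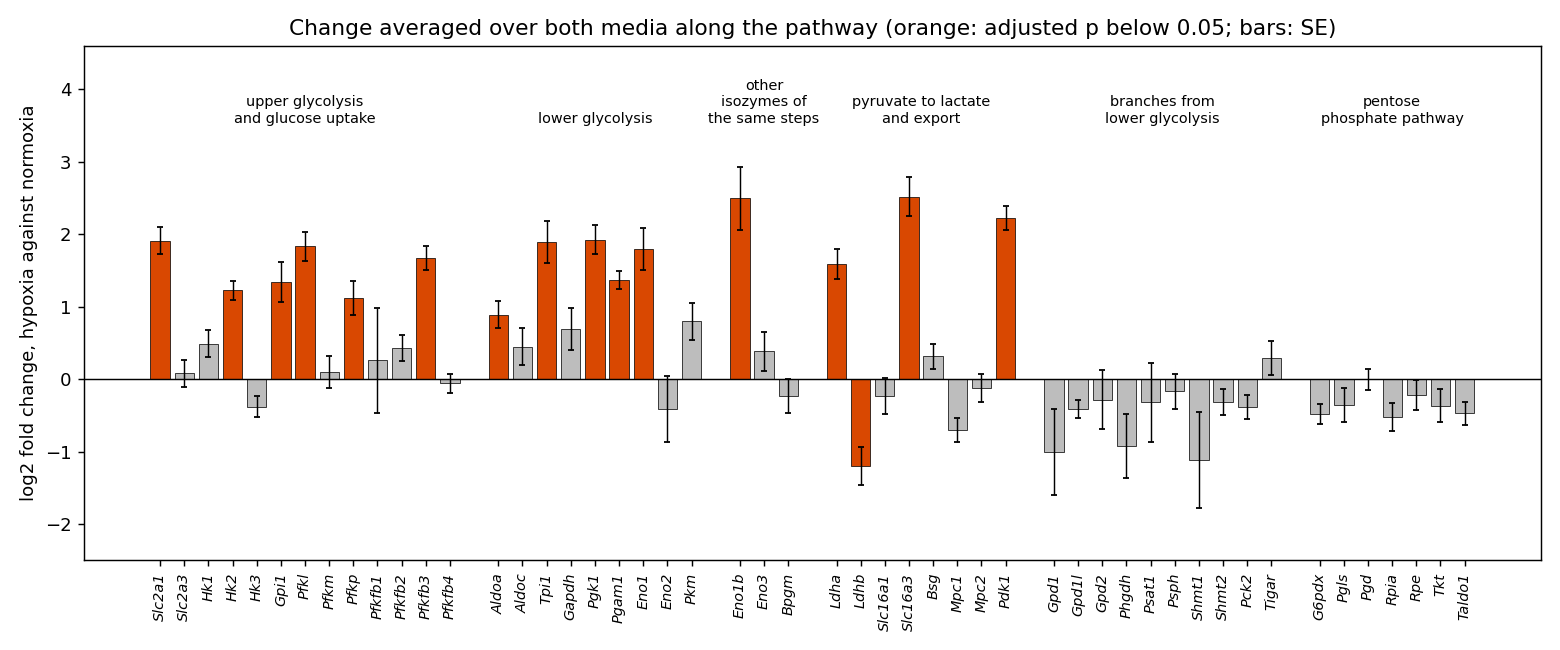
Log2 fold changes at 1% oxygen averaged over both media, with SE bars, for genes along the pathway grouped by list on the x axis. Orange marks an edgeR adjusted p below 0.05. Called genes sit among uptake, upper and lower glycolysis and lactate export, and the side routes hold none.

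Several members have processed pseudogenes, copies of the spliced transcript elsewhere in the genome, that compete for their reads. In the count table Gapdh had 109 annotated pseudogenes that matched its transcript, Aldoa 5, Pkm 4, Pgam1 3, Eno1 3 and Pgk1 2, while Aldoc, Tpi1 and Eno2 had none. Tpi1 does have annotated copies, such as Tpi-rs11 (97.7% identical), but the count table lacks them. It also lacks further copies of Gapdh, Aldoa, Pkm (such as Gm6560, 98.4% identical), Pgam1, Eno1 and Pgk1. The shares given here therefore cover only copies in the table. Of the reads on Gapdh and its copies, 40.1% to 58.2% were counted on the copies, most of all on Gm10293, which is 99.2% identical to the Gapdh transcript. The copies of Pgk1 took 10.9% to 30.7%, those of Pgam1 5.08% to 14.8%, those of Aldoa 0.357% to 1.84%, those of Pkm at most 0.173% and those of Eno1 at most 0.0125%.

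The share counted on copies was lowest in hypoxia-lactate 3 for Gapdh, Pgk1, Pgam1, Aldoa and Pkm. In the other 11 libraries the range for Pgk1 was 19.8% to 30.7%, and normoxia-NaCl 1 held the lowest of these. Pgk1-rs7, 100% identical to Pgk1 over its match, rose with Pgk1, by 2.14 ± 0.31 without lactate (edgeR adjusted p = 0.0116) and 1.64 ± 0.21 averaged, and with lactate it had 1.13 ± 0.30 and did not pass (edgeR adjusted p = 0.202). Pgam1-ps2, also 100% identical to its member, had 1.10 ± 0.26 averaged (edgeR adjusted p = 0.0626), and Gm10293 had 0.74 ± 0.22 (edgeR adjusted p = 0.132). Reads on identical stretches cannot be told apart by origin, so these values are uncertain as levels of the copies.

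Shared sequence also limits how many reads can be placed. Of all stretches of 100 bases in the transcript, 78.0% had an exact copy in another annotated gene for Gapdh, 67.0% for Pgk1, 59.0% for Eno1, 39.7% for Pgam1, 9.82% for Pkm and 0.796% for Tpi1. For Aldoa, Aldoc and Eno2 it was 0%. Reads that fit several places made up 8.34% to 18.4% of all reads per library and belong to no gene in the table. Adding the copies' counts to their member left 2, 3 and 5 members called without lactate, with lactate and averaged. The levels given for Gapdh, Pgk1, Eno1 and Pgam1 hold only the reads placed on the member itself.

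**Figure D5:**
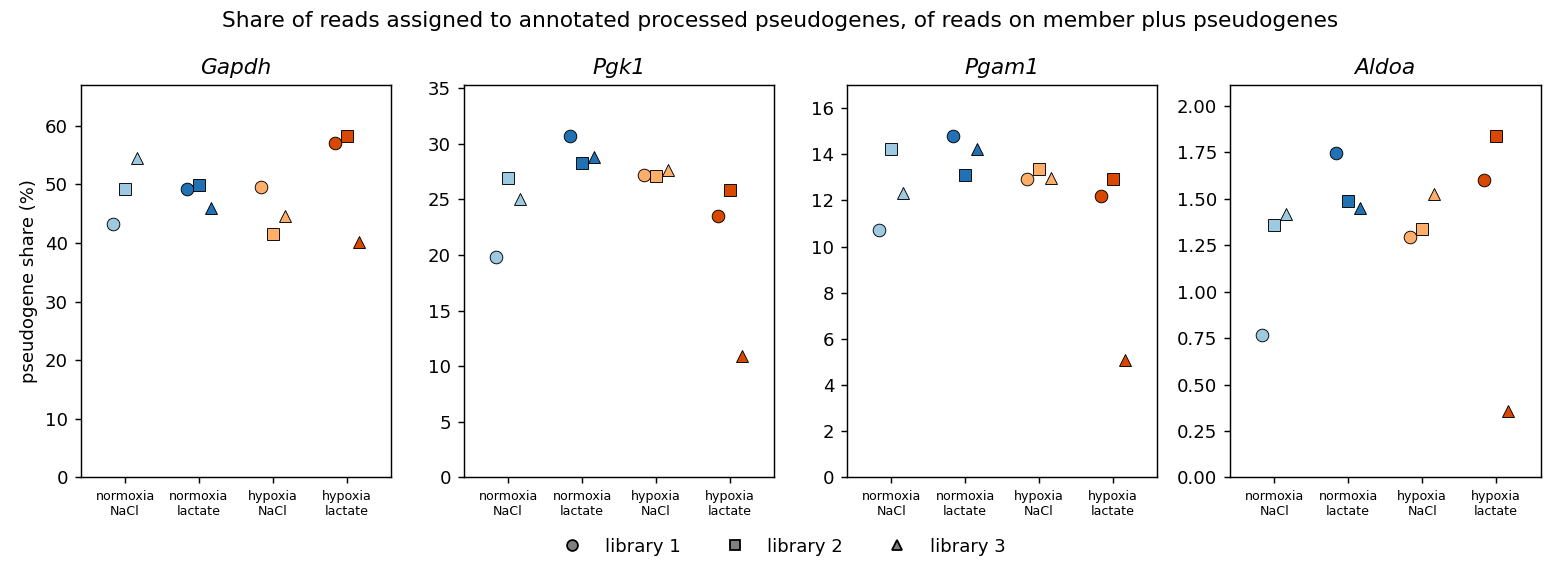
Share of reads on annotated processed pseudogenes, as a percentage of the reads on the member and its pseudogenes, for 4 members, with the 4 groups on the x axis and symbols for single libraries. The y axis starts at 0 and has its own range in each panel. The lowest symbol in each panel is hypoxia-lactate 3.

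The members resembled each other to different degrees. Each transcript's log2 CPM was centred on its mean over the 12 libraries, and likeness was the root mean square difference between 2 such profiles, so a small value means that they move alike. Tpi1 and Eno1 were closest to each other at 0.13, and Aldoa and Pkm at 0.25. Without hypoxia-lactate 3 these pairs stayed nearest, at 0.14 and 0.23. Eno2 was farthest from all others, with Pgam1 nearest at 1.29. Of 9189 other genes with a mean of at least 5 CPM, the 6 closest to the members' mean profile were Stk24 (0.16), Hk2 (0.16), Golph3l (0.17), Spata13 (0.17), Anxa2 (0.18) and Cd101 (0.19), against a median of 0.64 over those genes. Without hypoxia-lactate 3 these 6 ranked 4, 8, 3, 10, 5 and 2 in that order, so the list depends on that library. The 12 libraries differ in oxygen, medium and depth, and profiles that follow any of these look alike. Likeness is therefore a description with no test.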

How the data were processed

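RNA from 12 macrophage libraries was sequenced after poly(A) capture on an Ion Proton instrument, per the labels' protocols. The files the authors deposited hold unnormalized read counts for Ensembl genes. BWA, HTSeq and the mm9 build are named, per the submitters' processing notes. Annotation release and strand setting: not given in the sources used here. The 5 counters that name no gene held 31.7% to 37.4% of reads and were left out.

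Counts were tested with edgeR 4.0.16 in R 4.3.3 (quasi-likelihood F test, TMM scaling, filterByExpr, 1 mean per group over all 12 libraries, Benjamini-Hochberg adjustment, threshold 0.05). SEs were computed back from the F statistic. CPM use TMM-scaled library sizes. Isozyme ratios are log2 ratios of counts with 0.5 added. Symbols came from GENCODE M21 (GRCm38), another build than mm9, so its coordinates and the RefSeq windows were not joined to read positions. Pseudogenes were matched with BLAST+ 2.17.0 at 80% identity and 50% coverage or more. The code was tested on simulated data.

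Alternatives were RLE and upper-quartile scaling, filtering by a mean of 5 CPM or not at all, DESeq2 1.42.0, voom (limma 3.58.1) with and without library weights, the library number as a block, only the groups compared, libraries left out, and pseudogene counts added. The labels number the libraries in each group. Deviations of same-numbered libraries correlated at 0.12 to 0.281 for hypoxia without lactate, all above the limit of 0.1, so for that comparison the blocked fit was read as a paired one, and the other comparisons missed that limit. All values given, also for hypoxia without lactate, come from the fit without the block unless the block or the pairs are named. The members, lists, tests and the naming rule were chosen with earlier results of these data known. The rule names all members, up to 3 risen and 3 fallen genes of each list, the pseudogene with most counts per member and the 6 genes most like the members' mean profile. Genes named outside it were chosen after their values were seen.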

Additional observations from a re-analysis of the deposited data

How the results depend on the processing

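The member calls rest on 3 libraries a group, and the values of Gapdh, Pgk1, Eno1 and Pgam1 on how reads with several possible origins were placed. No setting run reversed a called member: of 235 values of called members under the alternatives, 203 stayed past the threshold and 32 did not. With the library number as a replicate block the calls without lactate, with lactate and averaged were 2, 2 and 4 of 9. The shares of all genes called higher in that fit were 0.267%, 0.219% and 1.24%. Tpi1 with lactate (edgeR adjusted p = 0.0808) and Aldoa averaged (edgeR adjusted p = 0.052) missed the threshold there. With the library numbers as pairs the isozyme differences of -0.47 and -2.25 had an exact permutation p of 0.0625. Upper-quartile scaling moved the median log2 fold change of all genes from -0.03 to -0.16 for hypoxia with lactate, from -0.03 to -0.15 for lactate in hypoxia and from -0.04 to -0.16 for the interaction, and the members' values under it carry that shift. Under limma-voom without library weights these medians were -0.13, -0.12 and -0.13, and with no filter the interaction median was -0.14. In a fit of only the groups compared, 0 members and 3 of all genes were called with lactate, where edgeR adjusted p-values of Tpi1, Pgk1 and Pgam1 were 0.528, 0.244 and 0.262, and 8 of 9 members were at an unadjusted p under 0.05 in the fit of all libraries. The cause of these differences was not tested.

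Of the members, DESeq2 called 5 with lactate, limma-voom with library weights 6 without and 6 with lactate, the fits without hypoxia-lactate 3 and normoxia-NaCl 1 called 6 and 5, and the block without hypoxia-lactate 3 called 4 without lactate. Averaged over both media these 4 settings called 6, 7, 7 and 6 of the 9. More of all genes was called higher there too. Averaged, DESeq2 called 515 genes higher, limma-voom with library weights 1199 and the fits without both libraries 722 (4.74%). By edgeR's quasi-likelihood test on all libraries it was 163 of 14616 (1.12%). Totals in both directions follow. Over all genes, edgeR's quasi-likelihood test called 41 without lactate, 33 with lactate and 201 averaged. DESeq2 called 153, 437 and 859, limma-voom with library weights 525, 737 and 2210, the fits without both libraries 188, 380 and 1362, and the block without hypoxia-lactate 3 called 767, 261 and 2211. For lactate in normoxia, in hypoxia and the interaction, where edgeR's quasi-likelihood test called 0 genes, DESeq2 called 10, 112 and 1, and limma-voom with library weights 11, 16 and 2. The fits without both libraries called 3 and 11 for lactate in normoxia and in hypoxia, the block without hypoxia-lactate 3 called 43 and 16, and no filter gave 1 for lactate in normoxia. With 1 library left out at a time the members called ranged from 1 to 4 without lactate, 0 to 4 with lactate and 4 to 5 averaged, and all genes from 7 to 270, 3 to 130 and 81 to 1145. For lactate in normoxia, in hypoxia and the interaction, 0 members were called each time by edgeR's quasi-likelihood test, and 0 to 5, 0 to 6 and 0 of all genes. The isozyme differences ranged from -0.56 to -0.36 for the aldolases and from -2.75 to -1.55 for the enolases.

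The signs that turned all belong to values that were not called. They turned as follows. With RLE scaling, turned values were Pgam1 (0.016) for lactate in hypoxia. With upper-quartile scaling, turned values were Gapdh (-0.15) and Pgk1 (-0.017) for lactate in hypoxia, Pgk1 (-0.15) for the interaction. With the filter at 5 CPM, turned values were Pgk1 (-0.021) for the interaction. With DESeq2, turned values were Pgam1 (0.016) for lactate in hypoxia. With limma-voom, turned values were Aldoc (0.014) at low oxygen without lactate, Gapdh (-0.065) for lactate in hypoxia. With limma-voom with library weights, turned values were Aldoc (0.13) and Eno2 (-0.099) at low oxygen without lactate, Tpi1 (0.032), Gapdh (0.030) and Eno1 (0.0090) for lactate in normoxia, Gapdh (-0.47), Eno1 (-0.0061) and Eno2 (0.022) for lactate in hypoxia, Gapdh (-0.50), Pgk1 (-0.11) and Eno1 (-0.015) for the interaction. With hypoxia-lactate 3 and normoxia-NaCl 1 left out, turned values were Aldoc (0.16) and Eno2 (-0.25) at low oxygen without lactate, Aldoa (0.0089), Tpi1 (0.14), Gapdh (0.17) and Eno1 (0.17) for lactate in normoxia, Gapdh (-0.54), Pgk1 (-0.13), Eno1 (-0.052) and Eno2 (0.16) for lactate in hypoxia, Tpi1 (-0.10), Gapdh (-0.71), Pgk1 (-0.25), Eno1 (-0.22) and Pkm (-0.000548) for the interaction. With the block and hypoxia-lactate 3 left out, turned values were Aldoc (-0.14), Gapdh (-0.66), Pgk1 (-0.080), Eno1 (-0.16) and Eno2 (0.31) for lactate in hypoxia, Gapdh (-0.36), Pgk1 (-0.20) and Eno1 (-0.092) for the interaction. With pseudogene counts added, turned values were Pgk1 (-0.20) for the interaction. With 1 library left out at a time the values ran at low oxygen without lactate Aldoc -0.20 to 0.16 and Eno2 -0.25 to 0.85, for lactate in normoxia Aldoa -0.36 to 0.0092, Tpi1 -0.31 to 0.14, Gapdh -0.62 to 0.17, Eno1 -0.35 to 0.17, Pgk1 -0.030 to 0.27 and Pkm -0.16 to 0.36, for lactate in hypoxia Gapdh -0.53 to 0.36, Pgk1 -0.12 to 0.46, Pgam1 -0.094 to 0.050, Eno1 -0.047 to 0.97 and Eno2 -1.18 to 0.17, for the interaction Gapdh -0.18 to 0.72 and Pgk1 -0.25 to 0.35.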
